A study of Mus musculus with 6 samples.

Results

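The cytosolic ribosomal protein genes are the members described here: the protein-coding genes for the proteins of the 2 subunits of the cytoplasmic ribosome. They were taken by gene symbol, as Rpl followed by a number for the large subunit and Rps followed by a number for the small subunit, with Rpsa and the stalk genes Rplp0, Rplp1 and Rplp2 added and the Rps6k kinases left out. Of 19131 genes in the files 83 matched, 52 of the large and 31 of the small subunit. A member was kept if it had 10 or more estimated reads in 3 or more libraries, which 82 of 83 did. The exception was Rpl10l, listed at 0 reads in every library; the kept member with the fewest reads was Rpl32l, at 5.86 to 14.1 per library.

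The libraries were made from skin of mouse embryos at embryonic day 17.5. Of these 3 are labelled Tie1 knockout (titles with Tie1ECDKO) and 3 are labelled control (titles with Tie1ECDWT), all on the C57BL/6N background. TIE1 is a tyrosine kinase receptor of the vessel lining, a homologue of TIE2, and the study asked what it does in vessel sprouting and the building of veins. No Cre driver, no treatment and no extent of the deletion is given in the labels, and whether each library is a separate embryo is not stated, so p-values measure the spread between these samples, which may be technical. Library totals ran from 19826856 to 20591164 estimated reads. Tie1 itself had 46 to 84 reads per knockout library and 1023 to 1215 per control library, so all 6 went with their labels. The tissue label also held: Krt5, Krt10 and Col1a1, which define basal keratinocytes, differentiated keratinocytes and dermal fibroblasts, were abundant, with means of 3677, 8358 and 15138 CPM in the knockout (CPM, depth-normalised counts, TMM-scaled) and 3663, 8568 and 14216 CPM in the control group.

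A ribosome joins a small subunit, which decodes the messenger RNA, to a large subunit, which forms the peptide bond, and each carries a fixed set of proteins on a core of ribosomal RNA. Most of these proteins are present in a single copy per ribosome, and their genes are transcribed at high rates in nearly every cell, most of all in growing cells. Their messenger RNAs usually begin with a 5′ terminal oligopyrimidine (TOP) tract, a C followed by an unbroken run of C and T, through which mTORC1 and LARP1 control their translation. In mouse skin, mutations of Rps19 and Rps20 darken the skin through p53 in keratinocytes, and Rpl24 and Rpl38 are the genes of the Belly spot and tail and Tail short mutants.

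The start of the transcript was read from RefSeq windows on GRCm38.p6, which were found for 63 of the 83 members (75 windows, since some genes have several annotated starts). The windows below are examples from ordinary members and the rarer paralogs, and they do not stand for either group. Each runs from 15 bases before the annotated start to 15 bases from it, on the strand of the gene, and capitals mark the longest unbroken run of C and T. Where a gene has several annotated starts, the window with the longest run is shown. In Rps27l, Rpl39l and Rpl37 the marked run ends before the annotated start, and in Rpl39 and Rpl3l it begins after it.
Rpl27a, chr7:109519180-109519209, plus strand: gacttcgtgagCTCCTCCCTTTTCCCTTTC
Rps18, chr17:33955651-33955680, minus strand: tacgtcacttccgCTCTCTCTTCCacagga
Rpl38, chr11:114668565-114668594, plus strand: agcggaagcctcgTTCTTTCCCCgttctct
Rplp2, chr7:141447636-141447665, plus strand: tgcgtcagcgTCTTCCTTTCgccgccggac
Rps6, chr4:86857353-86857382, minus strand: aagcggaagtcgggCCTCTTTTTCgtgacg
Rps27, chr3:90213634-90213663, minus strand: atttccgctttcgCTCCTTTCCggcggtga
Rps27l, chr9:66946071-66946100, plus strand: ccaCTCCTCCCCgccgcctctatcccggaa
Rpl39, chrX:37085208-37085237, minus strand: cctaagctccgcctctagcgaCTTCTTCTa
Rpl39l, chr16:10170213-10170242, plus strand: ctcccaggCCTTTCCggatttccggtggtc
Rpl37, chr15:5116598-5116627, plus strand: agTTTCCTgggcggaagcttatccacagga
Rpl3l, chr17:24727811-24727840, plus strand: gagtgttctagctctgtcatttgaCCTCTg

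Within the printed windows the run was 11 bases in Rps18, 10 in Rpl38, Rplp2 and Rps6, and 5 in Rpl3l, the paralog of striated muscle. In Rpl27a it was 19 bases, cut by the window's edge, and 20 over the 25 bases on each side of the start. Not every paralog had the shorter run: in windows of the printed size it was 5 in Rpl22 and 10 in its paralog Rpl22l1. Nor did every ordinary member have a long one, with 3 in Rpl24 and Rpl41 over the 25 bases on each side. Over the 25 bases on each side of the start, a run of 8 or more C and T stood in 35 of 75 member windows (46.7%), against 19.7% of all 32851 windows in the table. The letters CTTTC on the gene's strand stood in the same bases of 25.3% of member windows and 6.75% of all windows. An annotated start can miss the base where transcription begins, so a window without a run says nothing about the transcript.

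Upstream, the core of the binding site of ETS family factors such as GABPA was searched as CTTCCG or CGGAAG, which covers both strands, in the 250 bases before the start. It stood in 45.3% of member windows and 13.6% of all windows. The YY1 core (AAGATGG or CCATCTT) stood in 6.67% and 4.49%, and TATAAA or its reverse complement TTTATA in 6.67% and 12.4%. The next 3 stretches are the 250 bases before the starts of Rpsa, the laminin receptor and small subunit protein, of Rpl37, which had the largest positive fold change of the large subunit, and of Rpl3l, which had the most negative. Capitals mark ETS cores, of which Rpsa has 3, Rpl37 has 1 and Rpl3l has 0. None of the 3 stretches holds either of the other motifs. The 3 are examples, and their ETS counts do not stand for the members. Among tested members with a window, 32 had an ETS core before any annotated start, with a median log2 fold change of 0.132. For the 30 without one the median was 0.135.
Rpsa, chr9:120127516-120127765, plus strand: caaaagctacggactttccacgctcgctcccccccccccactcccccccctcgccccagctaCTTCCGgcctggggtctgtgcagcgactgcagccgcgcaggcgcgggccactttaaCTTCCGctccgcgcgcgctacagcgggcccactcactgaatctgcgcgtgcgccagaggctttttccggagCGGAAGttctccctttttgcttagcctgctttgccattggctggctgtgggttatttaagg
Rpl37, chr15:5116363-5116612, plus strand: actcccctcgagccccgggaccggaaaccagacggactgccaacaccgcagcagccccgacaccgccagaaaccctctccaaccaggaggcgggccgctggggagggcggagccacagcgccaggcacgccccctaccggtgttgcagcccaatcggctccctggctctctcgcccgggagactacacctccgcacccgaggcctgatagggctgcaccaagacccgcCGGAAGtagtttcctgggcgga
Rpl3l, chr17:24727576-24727825, plus strand: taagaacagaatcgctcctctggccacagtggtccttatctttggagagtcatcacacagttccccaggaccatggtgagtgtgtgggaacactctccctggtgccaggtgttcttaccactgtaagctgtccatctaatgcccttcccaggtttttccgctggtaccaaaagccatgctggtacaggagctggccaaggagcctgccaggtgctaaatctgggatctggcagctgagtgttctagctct

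Ribosomal protein transcripts of both subunits had slightly higher fitted levels in Tie1 knockout than in control skin, but no member passed the test and the 2 groups of libraries overlapped. The median fold was 1.10 for the 51 tested large subunit genes (log2 fold change 0.14) and 1.10 for the 31 small subunit genes (0.13), where the median log2 fold change of all 15035 genes tested was 0.0038. In bulk skin, fewer cells of a type and less RNA per cell cannot be told apart. A positive log2 fold change was found for 48 of 51 large subunit and 31 of 31 small subunit genes (46 and 29 under upper-quartile scaling or library totals alone), and for 51.2% of all genes. These genes varied together from library to library, so their number adds no replicates to the comparison of 3 with 3 libraries.

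By edgeR's quasi-likelihood test with Benjamini-Hochberg adjustment over all genes tested, 0 of 82 members were called at an adjusted p under 0.05, where 24 of all genes (0.16%) were, 0.0865% higher and 0.0732% lower. DESeq2 and limma-voom also called 0 members. The smallest adjusted p of a member was 0.519 (Rpl37). At an unadjusted p under 0.05 there were 3 members (7.42% of all genes were), Rpl37 and Rpsa higher (4.08% of all genes) and Rpl3l lower (3.35% of all genes). Every library of the knockout lay above every control library for 6 members (7.32% of those tested, against 7.03% of all genes), namely Rpl23, Rpl24, Rpl37, Rpl38, Rps2 and Rpsa. The groups were apart in the lower direction for 1, Rpl3l (6.78% of all genes). These shares are near or below the background.

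**Figure D1:**
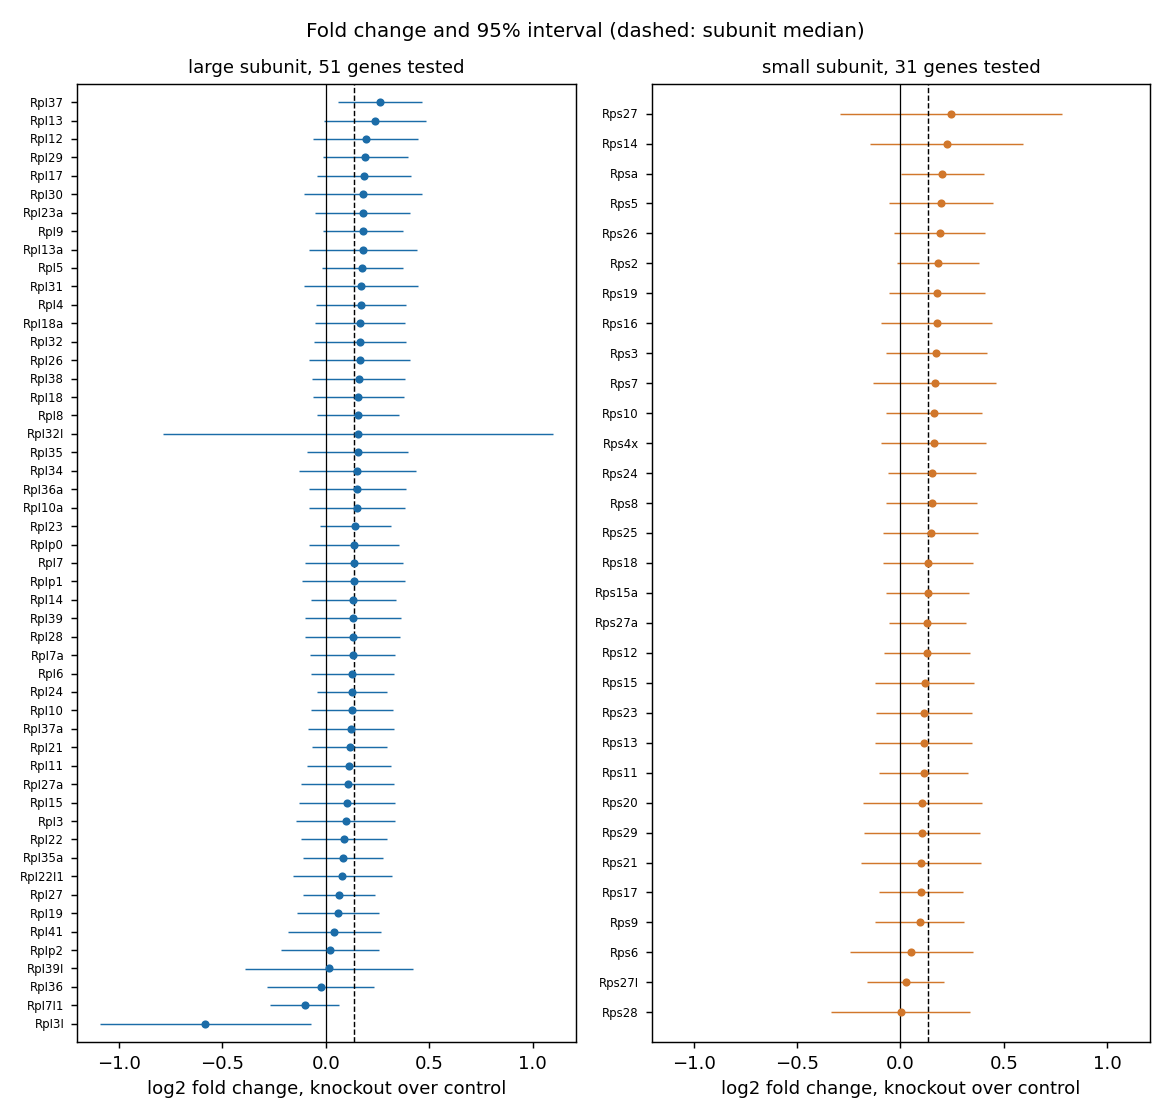
Log2 fold change of knockout over control (x axis) for each tested member (y axis), with its 95% interval from the edgeR fit; the dashed line is the median of the subunit. The 82 points lie between −0.58 (Rpl3l) and 0.26 (Rpl37), 79 of them above 0 (75 under upper-quartile scaling or library totals alone), and the interval reaches 0 for 49 of 51 large subunit and 30 of 31 small subunit genes.

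The order of the libraries was similar across members. Relative to each gene's mean log2 CPM over the 6 libraries, the median large subunit gene stood at −0.026, 0.12 and 0.12 in knockout 1, 2 and 3 and at −0.10, −0.15 and 0.067 in control 1, 2 and 3. The median small subunit gene stood at −0.027, 0.15 and 0.098 for knockout 1, 2 and 3, against −0.12, −0.17 and 0.085 for control 1, 2 and 3. Knockout 2, knockout 3 and control 3 were therefore high, control 1 and control 2 low, and knockout 1 in between. Control 2 was the lowest library for 54 of 82 members and control 1 for 22, while knockout 2 was the highest for 41 and knockout 3 for 32. Knockout 1 lay below control 3 for 46 of 51 large subunit and 29 of 31 small subunit genes.

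**Figure D2:**
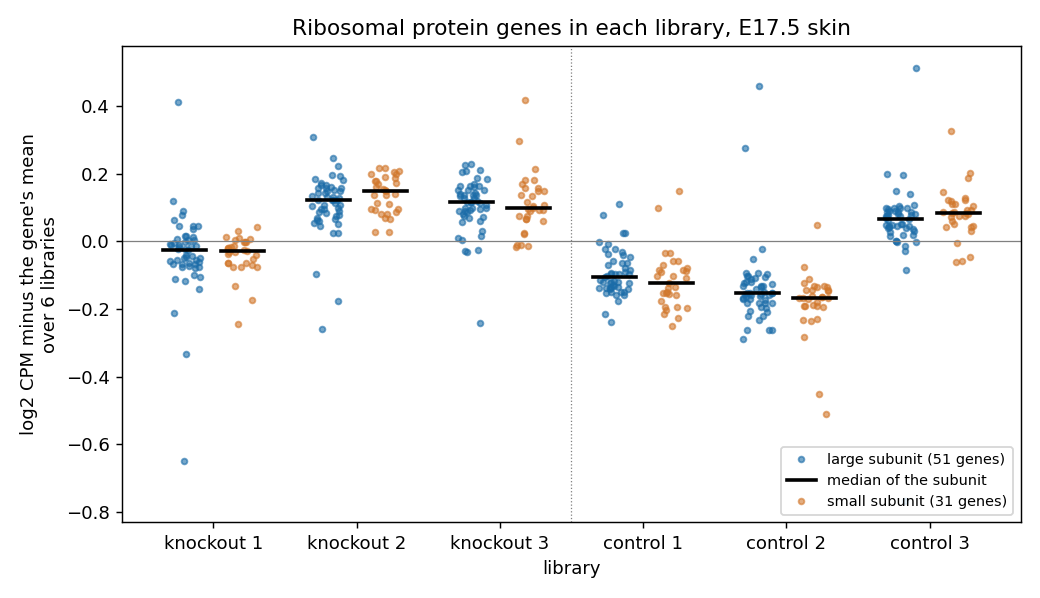
Log2 CPM of each tested member minus that gene's own mean over the 6 libraries (y axis), by library (x axis), 1 point per gene, with the median of each subunit as a black bar. The medians of knockout 2 and 3 and of control 3 lie above 0, and those of knockout 1 and control 1 and 2 below 0.

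The ribosomal protein share of reads was 5.91, 6.85 and 6.70% for knockout 1, 2 and 3, and 5.83, 5.67 and 6.58% for control 1, 2 and 3. The group means were 6.49 ± 0.51% and 6.03 ± 0.49% (SD, n = 3 each), a difference of 0.461 percentage points that is smaller than either SD. It was 0.752 without knockout 1 and 0.738 without control 3, and 0.278 without knockout 2 and 0.284 without control 2. In the same way the median log2 fold change fell to 0.085 (large) and 0.081 (small) without control 2, and the small subunit median was 0.20 without control 3.

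The balance of the subunits hardly varied. Summed CPM of the large subunit over that of the small was 1.57, 1.56 and 1.55 for knockout 1, 2 and 3, and 1.58, 1.59 and 1.56 for control 1, 2 and 3. On the log2 scale the ratio was 0.640 ± 0.00599 in the knockout and 0.657 ± 0.0105 in the control (SD, n = 3 each), while the share of reads ran from 5.67 to 6.85%. The group means of this ratio differed by more than either SD. Knockout 1 (0.647) still lay just above control 3 (0.646), so the groups overlapped on this measure as well. The ratio was not tested.

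Among large subunit genes, Rpl37 (gene 67281, chr15:5116613-5119140, GRCm38), a zinc-binding protein, had the largest positive value. It stood at 176, 206 and 197 CPM in the knockout and 170, 147 and 166 CPM in the control libraries, so the groups did not overlap. Its log2 fold change was 0.26 (SE 0.087, adjusted p = 0.519 by edgeR's test). The files also list Rpl37rt, a retrocopy outside the symbol rule that was looked at after values were seen, at 241, 297 and 234 CPM in the knockout and 217, 220 and 286 CPM in the control libraries. Summed with Rpl37, the groups overlapped, at 417 to 503 CPM in the knockout and 367 to 452 CPM in the control libraries. Estimated counts divide reads between similar sequences by a model, so the split within such a pair is uncertain, and whether the copies share reads here was not tested.

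The stalk proteins Rplp0, Rplp1 and Rplp2 recruit and activate the translation factor GTPases. Rplp0, the member with the most reads, stood at 2711, 2943 and 2915 CPM in the knockout and 2451, 2522 and 2818 CPM in the control libraries, with knockout 1 below control 3. Its log2 fold change was 0.14 (SE 0.092), and Rplp1 had 0.13 (SE 0.11). Rplp2 was nearly level, at 434, 465 and 430 CPM against 400, 409 and 503 CPM, a log2 fold change of 0.019 with a 95% interval of −0.22 to 0.26. Its sign turned under scaling by upper quartiles or by library totals alone.

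Rpl5 and Rpl11 form with the small ribosomal RNA of the large subunit a particle that can bind and inhibit MDM2, the ubiquitin ligase of p53. Rpl5 stood at 1129, 1257 and 1249 CPM in the knockout and 1052, 1025 and 1139 CPM in the control libraries (log2 fold change 0.18, SE 0.084). Rpl11 stood at 693, 711 and 672 CPM against 636, 581 and 701 CPM (0.11, SE 0.087). For both genes control 3 reached into the knockout range. Rpl24 stood at 587, 565 and 593 CPM in the knockout, above the 541, 500 and 556 CPM of the control libraries (log2 fold change 0.13, SE 0.071, adjusted p = 0.732 by edgeR's test). Rpl38, needed for translation of a subset of Hox messenger RNAs, stood at 209, 210 and 225 CPM against 206, 166 and 205 CPM (0.16, SE 0.096). The 2 groups were just apart for Rpl38, and control 2 was the one low library. Rpl27a, the gene of the Sooty foot ataxia mutant, had 0.11 (SE 0.096) and overlapped.

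Of the small subunit, Rpsa and Rps2 had the most reads. Rpsa (gene 16785, chr9:120127766-120132369, GRCm38) stood at 2503, 2773 and 2737 CPM in the knockout and 2337, 2220 and 2408 CPM in the control libraries, a log2 fold change of 0.20 (SE 0.086, adjusted p = 0.668 by edgeR's test). Rps2, at the messenger RNA entry of the subunit, stood at 2404, 2724 and 2567 CPM against 2281, 2192 and 2313 CPM (0.18, SE 0.085, adjusted p = 0.685 by edgeR's test). Both were apart between the groups, with 95% intervals of 0.0015 to 0.40 for Rpsa and −0.018 to 0.38 for Rps2 on the log2 scale. Neither was called.

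Rps19, the most often mutated gene in Diamond-Blackfan anaemia, stood at 421, 454 and 498 CPM in the knockout and 387, 376 and 452 CPM in the control libraries (log2 fold change 0.18, SE 0.099). Rps20, like Rps19 a gene of the dark skin mutants, stood at 440, 529 and 467 CPM against 407, 406 and 523 CPM (0.10, SE 0.12). In both genes control 3 lay within the knockout range. Rps14, whose loss underlies the anaemia of the 5q deletion syndrome, had a log2 fold change of 0.22 (SE 0.16), with control 2 at 590 CPM and the other 5 libraries at 787 to 990 CPM. Rps28, chosen after its values were seen, had the lowest log2 fold change of the small subunit, with its highest level in control 3. The Rps28 log2 fold change was 0.0011 (SE 0.14), and it was negative under upper-quartile scaling (−0.030), under library totals alone (−0.040) and with no filter (−0.0063).

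Rps27, a zinc finger protein, had the largest positive log2 fold change of the small subunit and also one of the least certain (0.24, SE 0.22, 95% interval −0.29 to 0.78). It stood at 316, 426 and 500 CPM in the knockout and 415, 262 and 373 CPM in the control libraries. The retrocopy Rps27rt, no member by its symbol and chosen after values were seen, was lowest in control 1 and knockout 3 and highest in knockout 1, at 274, 197 and 155 CPM against 136, 230 and 265 CPM. The coefficient of variation in the knockout was 22.4% for Rps27 and 29.0% for Rps27rt, but 5.21% for their sum. In the control group it was 22.5%, 31.6% and 13.0%. Summed, they stood at 590, 623 and 655 CPM in the knockout and 551, 493 and 638 CPM in the control libraries, a ratio of means of 1.11. The library order of the sum was closer to that of the other members, with control 2 lowest and control 3 in the knockout range.

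Levels were compared between members per kilobase of transcript, taking for each gene the median length of its protein-coding GENCODE M21 transcripts (GRCm38). Of 81 members with a length 72 stood at 300 CPM per kb or more, and the median was 971. Rplp0 led with 3193 CPM per kb (2869 to 3446 over the 6 libraries), followed by Rpl13a at 2804 (2417 to 3219) and Rps24 at 2552 (2230 to 2801). The ranges over libraries of these 3 overlapped from each to the next. Rps20 ranked low, at 125 CPM per kb, but its annotated length of 3706 nt was the longest of all members, so that level depends on which transcript is used.

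Rps6, the substrate of S6 kinase, (gene 20104, chr4:86854099-86857367, GRCm38) ranked 79 of 81, at 49.9 CPM per kb (41.7 to 56.5). It had 38.7, 49.6 and 45.6 CPM in the knockout and 36.7 to 47.4 CPM in the control libraries, and its start carries one of the clear TOP-like tracts above. Its log2 fold change was 0.053 (SE 0.13). The low estimate was seen in all 6 libraries, and how the reads of Rps6 were assigned was not tested.

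The paralogs Rpl3l, Rpl7l1, Rpl22l1, Rps27l and Rpl39l had log2 fold changes of −0.58 to 0.081. For Rpl32l, which by its symbol resembles Rpl32, the value was 0.16 (SE 0.40) from few reads. Rpl3l (gene 66211, chr17:24727826-24736143, GRCm38), which takes the place of Rpl3 in striated muscle, had the most negative value: 2.27, 2.97 and 3.58 CPM in the knockout and 3.85, 4.31 and 5.08 CPM in the control libraries. The log2 fold change was −0.58 (SE 0.22, adjusted p = 0.583 by edgeR's test), from 44 to 73 reads per knockout library against 78 to 103 per control library, and the groups did not overlap. Reads of Rpl3l were 0.204 to 0.281% of those of Rpl3 in the knockout and 0.353 to 0.398% in the control libraries. The 10 skeletal muscle markers were all detected, with a summed level of 8712 to 14028 CPM in the knockout and 10716 to 11538 CPM in the control libraries. The lowest muscle sum and the lowest Rpl3l level were both in knockout 1, while the highest muscle sum was in knockout 3. The part of muscle content in the Rpl3l values was not tested.

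Rpl7l1, a nucleolar relative of Rpl7, was the other paralog with a negative value (log2 fold change −0.10, SE 0.072), at 108, 109 and 122 CPM against 124, 115 and 125 CPM. Rpl22l1, the paralog of Rpl22, had 56.4, 64.3 and 55.7 CPM in the knockout and 51.7, 52.0 and 63.1 CPM in the control libraries. Its reads were 13.1 ± 1.29% of those of Rpl22 in the knockout and 13.1 ± 0.639% in the control (SD, n = 3 each). Rps27l, a p53 target, stood at 52.0, 58.7 and 54.0 CPM against 58.2, 51.6 and 52.1 CPM. Rpl39l, best known from testis, stood at 7.78, 10.6 and 11.5 CPM against 8.83, 9.46 and 11.3 CPM. The Rpl39l log2 fold change was 0.014 (SE 0.17) and the Rps27l log2 fold change 0.025 (SE 0.079), and both changed sign under scaling by upper quartiles (−0.014 and −0.0056) or by library totals alone (−0.025 and −0.016). For Rpl10l, a testis paralog of Rpl10 at 0 reads, a count of 0 allows up to 3 reads, or 0.146 to 0.151 CPM.

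**Figure D3:**
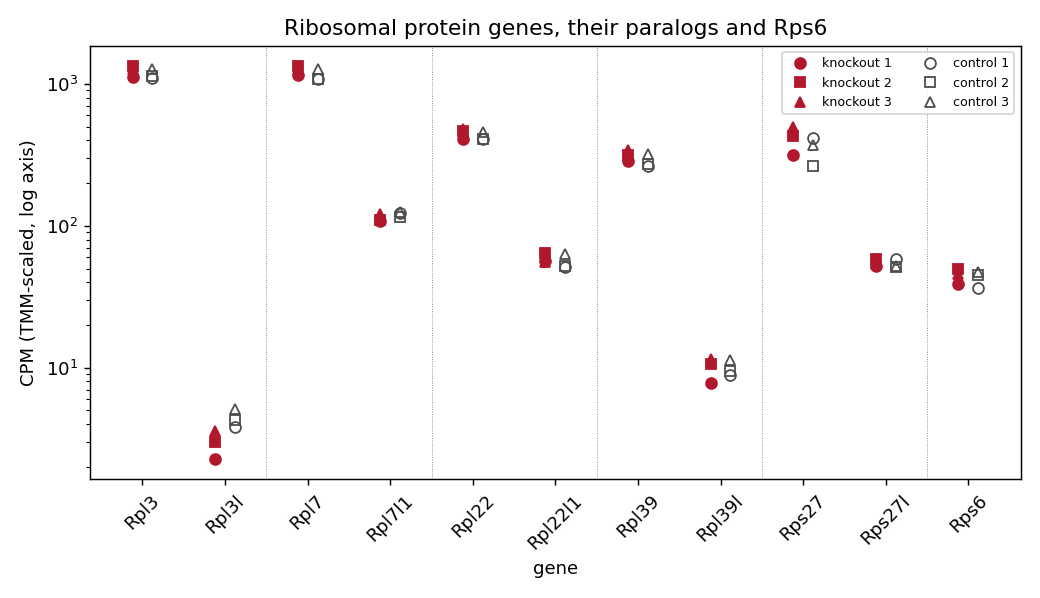
TMM-scaled CPM on a log axis (y axis) of 5 ribosomal protein genes beside their paralogs, and of Rps6 (x axis), 1 symbol per library, filled for knockout and open for control. Rpl3l lies lowest, at 2.27 to 5.08 CPM, and Rps6 near the paralogs at 36.7 to 49.6 CPM.

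Some proteins of the ribosome have symbols outside the rule. Fau, which encodes a small subunit protein fused to a ubiquitin-like sequence, stood at 387, 435 and 448 CPM in the knockout and 364, 325 and 407 CPM in the control libraries. Its log2 fold change was 0.21 (SE 0.10), and knockout 1 lay below control 3. Rps3a1, a small subunit protein, had a log2 fold change of 0.15 (SE 0.10). Rpl36al, a copy of Rpl36a derived by retroposition, was level: the Rpl36al log2 fold change was 0.0067 (SE 0.055), and negative under upper-quartile scaling (−0.024), under library totals alone (−0.035) and with no filter (−0.00027). By edgeR's test none of these 3 was called or had an unadjusted p under 0.05.

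Other genes of translation were taken from lists drawn up with earlier results known, and 0 members of any were called by edgeR. Translation factors and other genes with TOP messenger RNAs, such as Eef1a1 and Eef2, had positive values in 13 of 14 (51.2% of all genes). Their median log2 fold change was 0.11. Eef2, the translocation factor, stood at 2705, 3136 and 3003 CPM in the knockout and 2352, 2413 and 2776 CPM in the control libraries (0.23, SE 0.10, adjusted p = 0.685 by edgeR's test). The library medians of this list were −0.038, 0.11 and 0.10 against −0.13, −0.059 and 0.023, with the same 3 libraries highest. The 28 initiation factors had a median of 0.025, with 18 positive. The smallest p values belonged to Eif4ebp1, an inhibitor of the cap-binding protein (0.14, SE 0.076), and to Eif6, which keeps the large subunit from joining the small (0.11, SE 0.076).

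Of the ribosome assembly and mitochondrial ribosomal protein lists, 28.3% and 25.3% of genes had a positive value, against 51.2% of all genes. Both median log2 fold changes were smaller in size than the median SE of a gene (0.080 and 0.078). The number of genes adds no replicates. In the list of ribosome assembly and ribosomal RNA transcription the median of 53 genes was −0.043, with 38 negative. Nop56, a core protein of the box C/D particles that guide methylation of ribosomal RNA, stood at −0.14 (SE 0.062), and Rrp9 at −0.26 (SE 0.12), with adjusted p = 0.679 and 0.684 by edgeR's test. Of 79 mitochondrial ribosomal protein genes, 59 had a negative value and the median was −0.052. Mrps7 and Mrpl18 had −0.14 (SE 0.066) and −0.16 (SE 0.079). Across libraries neither list followed the members: control 2, the lowest for ribosomal proteins, was the highest for ribosome assembly, at 0.083.

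The p53 targets and the regulators of MYC and mTORC1 had medians of 0.016 (20 genes) and 0.039 (18 genes). At an unadjusted p under 0.05 by edgeR's test, 2 of the 20 p53 targets were higher (4.08% of all genes) and 2 lower (3.35% of all genes). Pmaip1, a cell death gene also called Noxa, stood at 0.66 (SE 0.18) and Ccng1, cyclin G1, at −0.21 (SE 0.067), with adjusted p = 0.390 and 0.506 by edgeR's test. Deptor and Rragc, an inhibitor of mTOR and a GTPase of amino acid sensing, had 0.19 (SE 0.12) and 0.069 (SE 0.056).

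**Figure D4:**
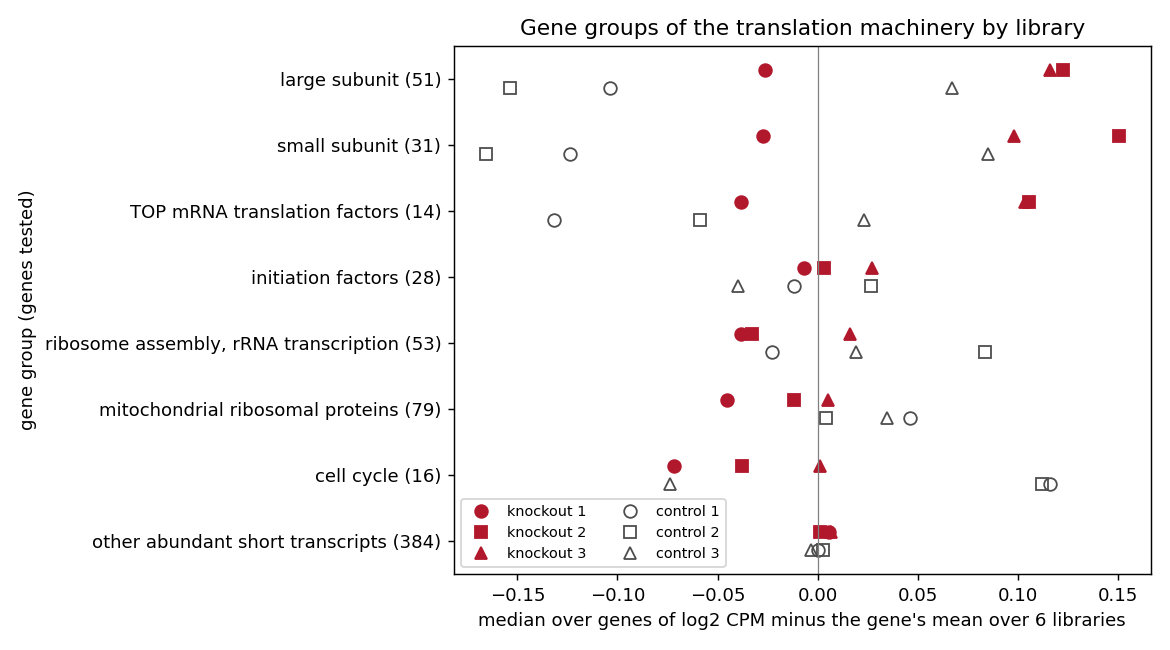
Median over the genes of a group of log2 CPM minus the gene's mean over 6 libraries (x axis), for 8 gene groups (y axis), 1 symbol per library. The 3 upper groups spread from −0.17 to 0.15 with control 1 and 2 lowest, while other transcripts under 1000 nt and at 100 CPM or more stay within −0.0031 and 0.0066.

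Other measures of the libraries stood beside this order as follows. Transcripts of members are short, with a median of 697 nt over the 81 with a length. The 384 other genes under 1000 nt with a mean of at least 100 CPM had library medians of −0.0031 to 0.0066 and a median log2 fold change of 0.0057. The part of transcript length in the result was not tested. The 16 cell cycle genes, all detected, were highest in control 1 and control 2, the 2 libraries lowest in ribosomal proteins. Their summed level was 2106, 2068 and 1770 CPM in the control libraries and 1861 to 1934 CPM in the knockout. Of these 16 genes 15 had a negative log2 fold change (median −0.098) and 1 a positive one, where 51.2% of all genes were positive. By edgeR's test 0 were called. The part of proliferation in the result was not tested. Hair follicle markers (17 of 17 detected) were low in knockout 1 and control 1, with sums of 681 and 724 CPM, and at 1147 to 1427 CPM in the other 4 libraries, control 2 included. With the hair follicle score as a covariate, the member medians were 0.16 (large) and 0.15 (small), with 0 called. Of 8 genes listed under RNA quality 6 are in the files used here, and Malat1 and Neat1 are not. The 6 are Fos, Jun, Egr1, Atf3, Hspa1a and Hspa1b, immediate early and heat shock genes that respond to tissue handling. Like the members, these 6 genes had their lowest medians in control 1 and control 2, but their highest was in knockout 1 and that of the members in knockout 2. Their library medians were 0.34, −0.096 and 0.078 for knockout 1, 2 and 3, and −0.37, −0.28 and 0.086 for control 1, 2 and 3. All 6 had positive log2 fold changes (median 0.29), where 51.2% of all genes did. By edgeR's test 0 were called, and 2 were higher at an unadjusted p under 0.05 (4.08% of all genes). The summed level of the 6 genes was 308 to 425 CPM in the knockout and 266 to 349 CPM in the control group, and its part in the result was not tested. The lowest sums were in control 1 (266 CPM), knockout 2 (308 CPM) and control 2 (309 CPM). The 7 erythroid genes all had negative log2 fold changes (median −0.41) and 0 were called by edgeR. Their summed level was 16077 CPM in control 1, one of the libraries low in ribosomal proteins, and 6666 to 8945 CPM in the other 5 libraries. The 6 adipocyte markers, all detected, had sums of 214 to 319 CPM in the knockout and 335 to 408 CPM in the control group. Of the 5 tested all had negative values, and 1 was called, Plin1, a protein of the lipid droplet (the Plin1 log2 fold change was −3.22, SE 0.37, adjusted p = 0.0353 by edgeR's test, and 0.0759 to 0.203 with 1 library left out). The list of macrophage and mast cell markers was divided after its values were seen, and 0 of its genes were called by edgeR. The 4 mast cell genes (Cma1, Cpa3, Mcpt4 and Kit) all had negative values, with sums of 1148 to 1267 CPM in the knockout and 1820 to 2427 CPM in the control group. The 5 macrophage genes (Cd68, Mrc1, C1qa, Csf1r and Adgre1) all had positive values, with sums of 353 to 404 CPM in the knockout and 247 to 332 CPM in the control group. The 8 basal keratinocyte genes had library medians of −0.23, 0.15 and 0.18 for knockout 1, 2 and 3. For control 1, 2 and 3 they were −0.52, 0.23 and 0.20. The 11 differentiated keratinocyte genes had 0.62, −0.11 and −0.12 against −0.14, 0.081 and −0.060. The medians of the 9 dermal fibroblast genes ran from −0.10 to 0.13, and of the 8 endothelium genes from −0.16 to 0.16. In these lists 0 genes were called by edgeR. The part of any of these cell types in the result was not tested.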

How the data were processed

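Bulk RNA-seq of 6 skin libraries was analysed. Per the labels' protocols, messenger RNA was selected with oligo(dT) beads. The deposited value of each gene is an estimated count, named a read count per the file headers, not whole for many genes and not scaled to depth. Tools named in the submitters' processing notes, without roles, are RSEM 1.2.12, Bowtie2 2.2.5 and HISAT2 2.0.4, and the build is GRCm38.p6. Annotation and use of strand are not given in the sources used here.

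From these, estimates were rounded, filtered with filterByExpr (minimum count 10), TMM-scaled and tested in edgeR 4.0.16 under R 4.3.3 (quasi-likelihood F test, robust fit, genotype as the only term) over 15035 genes. The SE is the absolute log2 fold change over the square root of F. Library values use log2 CPM with prior count 2. Members and lists were chosen with earlier results of these data known, so no list was tested. Named genes were members with the most reads or extreme fold changes per subunit, paralogs, genes of known mutants, stalk genes, and the 2 smallest p of each list. A gene that this rule names is not reported here. Alternatives included DESeq2 1.42.0 and limma 3.58.1. Matching library numbers were not treated as pairs.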

Additional observations from a re-analysis of the deposited data

How the results depend on the processing

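No alternative called a ribosomal protein gene: 0 of the large and 0 of the small subunit passed under RLE, upper-quartile or total scaling, TMM factors without these genes, other filters, DESeq2, limma-voom, a quasi-likelihood fit without robust settings, a hair follicle covariate, or with libraries left out. The lowest adjusted p of a member was 0.0799, without both knockout 1 and control 1. The medians stayed positive throughout, at 0.085 to 0.20 (large) and 0.081 to 0.20 (small) with 1 library left out, and at 0.097 and 0.094 under library totals alone, where the median of all genes was −0.038. Whether library numbers pair the samples is not given in the labels. Deviations of same-numbered libraries correlated at 0.41, 0.043 and 0.27. They were taken from each group's own mean, so the correlations constrain each other and cannot settle the pairing. Knockout 1 and knockout 3 correlated best with their own number and knockout 2 with control 3 (0.18). With the replicate block 52 genes were called in place of 24, 0 of them members, and the medians were 0.14 (large) and 0.14 (small). Over all genes, DESeq2 called 210, limma-voom 15, the fit with no filter 38, the hair follicle covariate 118, the fit without both knockout 1 and control 1 139, and fits with 1 library left out 1 to 11. Genes near 0 changed sign under upper-quartile scaling and library totals alone: the Rplp2 log2 fold change (−0.012 and −0.022), the Rpl39l log2 fold change (−0.014 and −0.025), the Rps27l log2 fold change (−0.0056 and −0.016), the Rps28 log2 fold change (−0.030 and −0.040, and −0.0063 with no filter) and, outside the symbol rule, the Rpl36al log2 fold change (−0.024 and −0.035, and −0.00027 with no filter). Without both knockout 1 and control 1, Rplp2 was at −0.027, Rps28 at −0.074, Rpl32l at −0.0040 and Rps27l at 0.12. With 1 library left out, the Rpl36 log2 fold change ran from −0.091 to 0.080, Rpl36al from −0.022 to 0.031, Rpl39l from −0.10 to 0.16, Rplp2 from −0.041 to 0.13, Rps27l from −0.029 to 0.083, Rps28 from −0.091 to 0.18, the Rpl32l log2 fold change from −0.11 to 0.47 and the Rps6 log2 fold change from −0.050 to 0.15. The cause was not tested. The Tie1 log2 fold change was −4.10 without knockout 2 (adjusted p = 0.0559 by edgeR's test). Depth was even, and members with many reads are limited by the spread between libraries; Rpl32l, at 5.86 to 14.1 reads, is limited by counting.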
